A study of Mus musculus with 64 samples.

Results

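Dentate granule cells, the principal neurons of the dentate gyrus, were followed through 7 genes known to mark them in the rodent hippocampus, chosen by name: Prox1, Calb1, Dsp, C1ql2, C1ql3, Trpc6 and Tdo2. The genes were found in the deposited table by Ensembl identifier through the GENCODE vM21 annotation, and all 7 were among its 18432 rows. The list came from knowledge of the cell type and not from a contrast of these libraries, although results of the libraries were known when the genes were proposed. Granule cells receive the input of the entorhinal cortex and send mossy fibres to the mossy cells of the hilus and to the pyramidal cells of CA3. New granule cells are born into adulthood, and in rodents and people with temporal lobe seizures the dentate gyrus is among the regions where loss of calbindin, altered neuropeptides and sprouting of mossy fibres have been described. In bulk tissue, fewer granule cells and less RNA of a gene per granule cell cannot be told apart.

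The 7 genes have different roles. Prox1 (ENSMUSG00000010175) encodes a homeodomain transcription factor that granule cells need to form and to keep their identity. Calb1 (ENSMUSG00000028222) encodes calbindin, a calcium buffer of mature granule cells that CA1 pyramidal cells and cortical neurons also make. C1ql2 (ENSMUSG00000036907) and C1ql3 (ENSMUSG00000049630) encode secreted C1q-like proteins that mossy fibres release and that bind neurexin 3 and kainate receptors at the synapse onto CA3. Dsp (ENSMUSG00000054889) encodes desmoplakin, a plaque protein that ties desmosomes to intermediate filaments in epithelium and heart. Trpc6 (ENSMUSG00000031997) encodes a cation channel opened by diacylglycerol, and Tdo2 (ENSMUSG00000028011) encodes a tryptophan dioxygenase, the first enzyme of the kynurenine pathway.

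All 7 are protein-coding genes. In GRCm38, Prox1 lies at chr1:190118035-190170714 on the minus strand and C1ql2 at chr1:120340582-120343174 on the plus strand. C1ql3 spans chr2:13003457-13011806 on the minus strand, Tdo2 chr3:81957090-81976202 on the minus strand and Calb1 chr4:15881264-15908064 on the plus strand. Trpc6 spans chr9:8544142-8680741 and Dsp chr13:38151294-38198577, both on the plus strand. Genes on the opposite strand overlap Prox1, C1ql3, Trpc6 and Dsp. The library kit keeps the strand, but how the strand was set in the quantification is not given in the sources used here, so reads of these partners are an uncertainty for the 4 genes.

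The libraries come from mice heterozygous for a knock-in allele of Cyfip2, written Cyfip2 +/R87C and called KI, and from their wild-type (WT) littermates, all on the C57BL/6N strain. The allele changes arginine 87 of CYFIP2, a subunit of the WAVE regulatory complex that drives actin branching, to cysteine, as in patients with West syndrome, an infantile epilepsy. It sits in every cell of the mouse, in excitatory and inhibitory neurons alike. Frontal cortex and hippocampus were taken from both hemispheres of each animal at postnatal week (PWK) 1, 7, 14 or 28, with 4 mice for each age and genotype, which gave 16 groups of 4 libraries and 64 libraries in all.

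The deposited values are gene-level estimates scaled by DESeq2, and a value below is one of these. The 64 libraries summed to between 29225576 and 32601227, with a median of 31051098. These are totals after scaling, so the sequencing depth behind each library is unknown and no counting interval can be given. Expression of Y-linked genes was found in every library, with lowest values of 825.8 for Ddx3y and 370.3 for Uty. The paper states that males and females were used, without giving the sex of these mice. Hippocampal KI replicate 1 at PWK 14 stood apart in its own group. It was lowest of the 4 for 6 of the 7 genes, and Gfap, the astrocyte intermediate filament, was at 131431 in it against 40059 to 47169 in the other 3 KI libraries. For Cyfip2 itself no difference between genotypes passed in hippocampus (log2 fold changes from -0.20 to 0.07). In cortex its log2 fold change was 0.11 at both PWK 1 and PWK 7, -0.33 at PWK 14 and -0.44 at PWK 28. The genotypes overlapped at PWK 1, every KI library was above every WT library at PWK 7, and every KI library was below every WT library at PWK 14 and PWK 28. The limma threshold was passed at PWK 28 (adjusted p = 0.0058). The allele changes a codon and not the number of gene copies, so its level does not check the labels.

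The first comparison asked how far the 7 genes set hippocampus apart from frontal cortex in WT mice. Prox1, Dsp and C1ql2 were higher in hippocampus at every age, and Tdo2 was higher from PWK 7 on. The mean levels of Calb1, C1ql3 and Trpc6 in adult hippocampus were between 0.825 and 1.42 times those in cortex. Only 4 of the 7 genes set the adult WT hippocampus apart from cortex by more than 7-fold, and the cortex expresses the other 3 widely. All differences were tested with limma-trend on log2(value + 1), with Benjamini-Hochberg adjustment over all genes tested and a call at an adjusted p under 0.05. Both regions came from the same mice, and the main fits between regions took the libraries as separate. With the replicate number as a block, no call of hippocampus against cortex in WT mice changed for the 7 genes.

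Dsp showed the widest gap of the 7. At PWK 28 its WT values were 1987, 2119, 2051 and 2187 in hippocampus and 6.31, 21.1, 10.9 and 10.8 in cortex, with no overlap. The ratio of the means was 170. For C1ql2 the WT hippocampus at that age gave 1226, 1294, 1340.4 and 1319, against 37.6, 11.5, 16.3 and 9.17 in cortex, a ratio of 69.5. Prox1 was at 3882, 4017, 3808 and 4037 in hippocampus and at 679, 542, 498 and 492 in cortex, where interneurons express it, for a ratio of 7.12. Neither gene overlapped between the regions. Tdo2 was low in both regions, at 139, 92.3, 137 and 128 in hippocampus and 7.2, 7.64, 14.5 and 5.53 in cortex, a ratio of 14.2.

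On the log2(value + 1) scale the hippocampus minus cortex difference of Dsp was 2.69 ± 0.38 (SE), 8.16 ± 0.30, 7.91 ± 0.28 and 7.41 ± 0.26 from the youngest to the oldest age. C1ql2 differed by 3.95 ± 0.24, 6.11 ± 0.26, 6.88 ± 0.20 and 6.25 ± 0.32 in the same order, and Prox1 by 3.40 ± 0.07, 2.98 ± 0.07, 2.97 ± 0.11 and 2.84 ± 0.09. Tdo2 went from -0.12 ± 0.19 at PWK 1 to 3.97 ± 0.41, 3.74 ± 0.62 and 3.75 ± 0.28. The highest limma adjusted p among the called differences of these 4 genes was 0.000562, for Tdo2 at PWK 14. C1ql3 was lower in hippocampus at PWK 1 (log2 difference -0.64 ± 0.07, limma adjusted p = 4.2e-05) and at PWK 28 (-0.27 ± 0.08, 0.0167). Calb1 was higher in hippocampus at PWK 1 (0.81 ± 0.11, limma adjusted p = 0.000175) and at PWK 28 (0.24 ± 0.05, 0.00444), and Trpc6 at PWK 14 alone among the 4 ages (0.50 ± 0.12, 0.00714). In all, 5, 4, 5 and 6 of the 7 genes passed at PWK 1, 7, 14 and 28, beside 34.7%, 40.8%, 34.6% and 37.8% of all genes tested. With the spread estimated from all 64 libraries, the calls of Calb1 and C1ql3 at PWK 28 were lost (limma adjusted p = 0.194 and 0.0834), and C1ql3 was also lost without cortical WT replicate 4 (0.0521). In turn, C1ql3 passed at PWK 7 without cortical WT replicate 3 (0.0369), and at PWK 14 without replicate 4 of cortex (0.0444) or of hippocampus (0.0449).

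**Figure D1:**
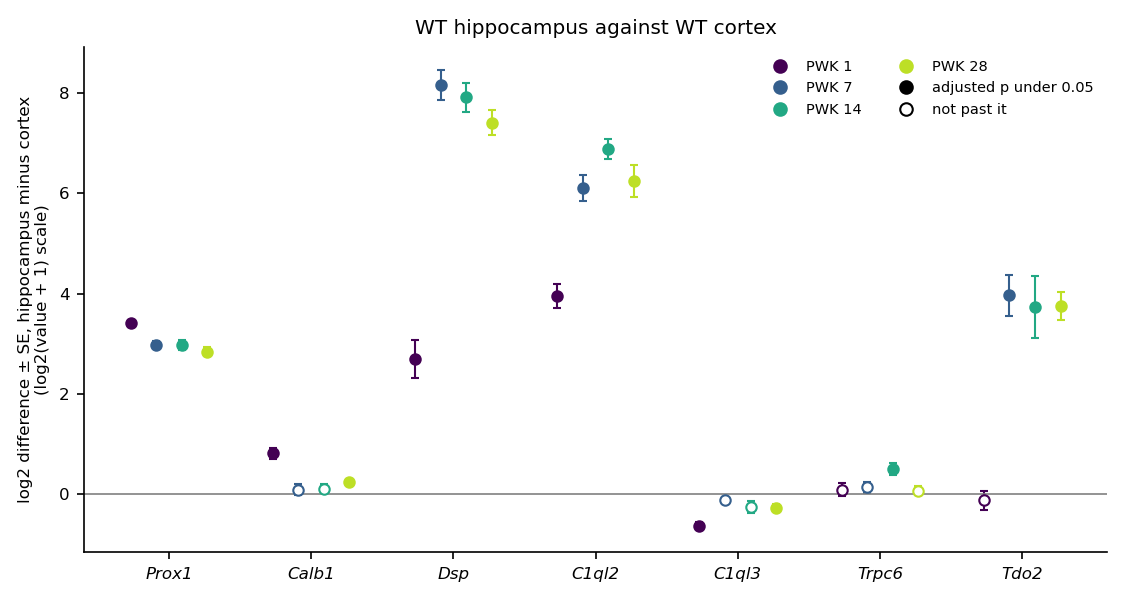
Log2 difference of hippocampus minus cortex in WT mice (y axis, log2(value + 1) scale) for the 7 genes (x axis) at the 4 ages (colours), as the fitted value ± SE from 4 libraries a region; filled points passed an adjusted p of 0.05. Dsp, C1ql2 and Prox1 lie above 2.6 at each age, Tdo2 joins them from PWK 7, and Calb1, C1ql3 and Trpc6 stay within 1 of the zero line.

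Levels can be compared roughly between genes once divided by the exon length of each gene. That length joins the exons of all annotated transcripts and may differ from that of the transcripts expressed. The spread over libraries does not cover an error in length. In WT hippocampus at PWK 28 the mean value per kilobase was 898 for C1ql3, 737 for Calb1, 647 for C1ql2, 469 for Prox1, 216 for Dsp, 90.8 for Trpc6 and 32.0 for Tdo2. No neighbours in this order overlapped. The closest were Calb1 (678 to 776 per kilobase over the 4 libraries) and C1ql2 (613 to 670).

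The second comparison followed the genes with age in WT mice. Most of the change fell between PWK 1 and PWK 7. In hippocampus 6 of the 7 genes rose over this interval, against 61.3% of all genes that changed in either direction. Dsp, a late marker, went from 341, 361, 376 and 316 at PWK 1 to 2768, 2614, 1941 and 2686 at PWK 7. C1ql2 went from 206, 168, 202 and 152 to 1487, 1560.4, 1227 and 1331. In both genes every library at PWK 7 was far above every library at PWK 1. The log2 changes were 2.94 ± 0.11 for C1ql2, 2.83 ± 0.11 for Dsp, 1.53 ± 0.09 for Trpc6, 1.30 ± 0.06 for C1ql3, 1.24 ± 0.19 for Tdo2 and 0.94 ± 0.08 for Calb1 (limma adjusted p at most 0.00014). Prox1, which is on from the birth of granule cells, was already at 4676, 5545, 5012 and 4628 at PWK 1 and at 4917, 4594, 3857 and 4481 at PWK 7, with overlapping values and a log2 change of -0.16 ± 0.08 (limma adjusted p = 0.101). That change passed with each library scaled by its total (0.0387) and without PWK 7 replicate 1 (0.0439). The call of Tdo2 was lost with the spread of all 64 libraries (0.0553).

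In cortex the same interval changed 6 of the 7 genes, but not in the same way. Calb1 (log2 change 1.66 ± 0.13), Trpc6 (1.48 ± 0.14), C1ql3 (0.78 ± 0.07) and Prox1 (0.27 ± 0.07) rose, whereas Tdo2 (-2.85 ± 0.41) and Dsp (-2.64 ± 0.50) fell, and 65.3% of all genes changed in either direction. C1ql2 was low in cortex at both ages and did not pass (0.79 ± 0.37, limma adjusted p = 0.0833), with 0.47 when WT replicate 2 of PWK 7 was left out and a call when WT replicate 1 of PWK 1 was (0.0434). Cortical Tdo2 was at 121, 75.7, 115 and 112 at PWK 1 and at 21.4, 7.5, 6.7 and 29.6 at PWK 7. The WT values of Tdo2 in hippocampus at PWK 1, 94, 82.9, 129 and 83.7, overlapped those of cortex at that age. The gene set the regions apart at PWK 7 and not at PWK 1. The difference between regions in the change from PWK 1 to PWK 7, a test added after seeing the data, was past the threshold for Dsp (log2 5.47 ± 0.54, limma adjusted p = 1.36e-06), Tdo2 (4.09 ± 0.49, 1.13e-05), C1ql2 (2.16 ± 0.38, 0.000475), C1ql3 (0.51 ± 0.10, 0.00111), Calb1 (-0.73 ± 0.17, 0.00541) and Prox1 (-0.42 ± 0.10, 0.00521), beside 21.3% of all genes. The call of Prox1 was lost with the spread of all 64 libraries (0.0509). Trpc6, with 0.04 ± 0.17, did not pass (0.887).

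Between the adult ages no change of the 7 genes passed the limma threshold. In hippocampus 0 of 7 changed from PWK 7 to 14 and 0 of 7 from PWK 14 to 28 (1 and 3 at an unadjusted p under 0.05), beside 1.99% and 8.11% of all genes. In cortex 0 of 7 changed in each step (0 and 1 at an unadjusted p under 0.05), beside 5.32% and 12.0%. The nearest to the threshold were Trpc6 from PWK 7 to 14 (log2 change 0.46 ± 0.11, limma adjusted p = 0.0624) and C1ql2 from PWK 14 to 28 (-0.37 ± 0.11, 0.0654), both in hippocampus. Both turned on WT replicate 3 at PWK 14, the lowest library of its group for 6 of the 7 genes. Without it the adjusted p was 0.0486 for Trpc6 and 0.00661 for C1ql2, and C1ql3 (0.048) and Tdo2 (0.0332) also passed from PWK 14 to 28.

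**Figure D2:**
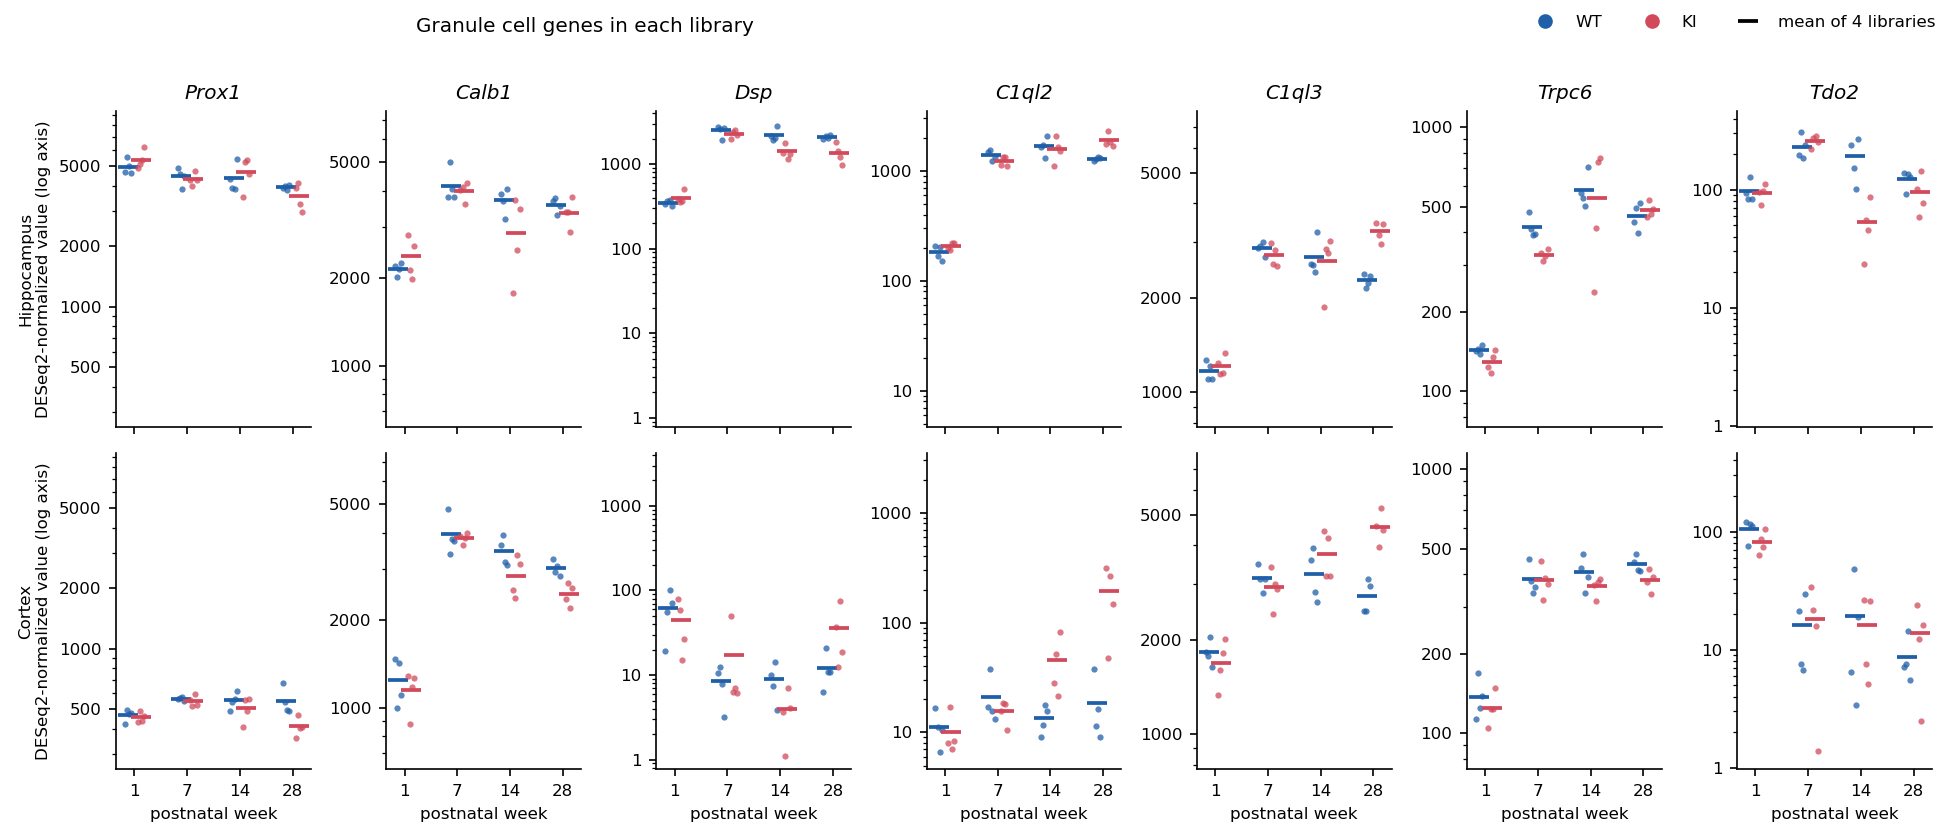
Deposited values (y axis, log scale, the same range in both rows of a column) of the 7 granule cell genes in hippocampus (top) and frontal cortex (bottom) against postnatal week (x axis); points are the 4 WT (blue) and 4 KI (red) libraries of a group and dashes their means. The gain from PWK 1 to 7 in hippocampus, the gap between regions for Dsp, C1ql2 and Tdo2, and the separation of C1ql2 in cortex at PWK 28 (KI 47.1 to 311, WT 9.17 to 37.6) can be read from it.

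The knock-in was then compared with WT at each age. At PWK 1 and PWK 7 none of the 7 genes passed the limma threshold in either region. The background was just as low. In hippocampus 0.0109% and 0.0218% of all genes were called at these 2 ages, and in cortex 0.00546% and 0.00545%. At an unadjusted p under 0.05 there was 1 gene, Trpc6 in hippocampus at PWK 7. The channel gene was at 478, 412, 389 and 393 in WT mice and at 334, 310.4, 326 and 345 in KI mice. Every KI library was below every WT library, but the log2 fold change of -0.34 ± 0.09 had a limma adjusted p of 0.561 over all genes.

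At PWK 14 the hippocampus of KI mice had less Dsp and less Tdo2 than that of WT mice, and the other 5 genes did not pass. These 2 of 7 stand beside 15.6% of all genes called in either direction. The median log2 fold change of the 7 was -0.24, against 0.0060 over all genes tested. That median is the value of Trpc6, which turned to 0.11 without KI replicate 1, the library that stood apart. Tdo2 was at 241, 152, 101 and 271 in WT libraries and at 23.4, 55.3, 46 and 87.5 in KI libraries. All KI values were below all WT values, and the log2 fold change was -1.87 ± 0.42 (limma adjusted p = 0.0174). Dsp was at 2125, 1929, 2016 and 2812 in WT and at 1356, 1788, 1158 and 1333 in KI mice, again with no overlap. Its log2 fold change was -0.66 ± 0.15 (limma adjusted p = 0.0181).

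Neither change rested on the library that stood apart. Without KI replicate 1 the log2 fold change was -0.65 ± 0.16 for Dsp (limma adjusted p = 0.0233) and -1.54 ± 0.35 for Tdo2 (0.0154). The call of Tdo2 was lost without WT replicate 1 (0.0588) or WT replicate 4 (0.0553), and that of Dsp with the spread of all 64 libraries (0.301). WT replicate 4 was the highest of its group for 7 of the 7 genes.

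Calbindin is the granule cell gene most often followed in epilepsy models. Calb1 at PWK 14 was at 3883, 3698, 3191 and 4055 in WT hippocampus and at 1773, 3715, 2503 and 3464 in KI hippocampus. KI replicates 1 and 3 were below every WT library and the other 2 lay within their range. The log2 fold change of -0.43 ± 0.21 did not pass (limma adjusted p = 0.192). Without KI replicate 1 it was -0.21 ± 0.13 (0.299), while the fit of all 64 libraries called it (0.016). Trpc6 spread widely among KI mice, from 239 in replicate 1 and 416 in replicate 2 to 735 and 766 in replicates 3 and 4, around WT values of 501 to 705. Prox1 was at 3521, 5228, 5409 and 4563 in KI mice and 4335, 3907, 3855 and 5441 in WT mice (log2 fold change 0.09 ± 0.15, limma adjusted p = 0.726). C1ql2 (-0.10 ± 0.19) and C1ql3 (-0.05 ± 0.15) overlapped too. Without KI replicate 1 the log2 fold change was 0.22 for Prox1, and it turned to 0.05 for C1ql2, 0.11 for C1ql3 and 0.11 for Trpc6 (from -0.24 ± 0.33), none past the threshold.

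At PWK 28 the hippocampus showed changes in opposite directions among the 7 genes. C1ql2 and C1ql3 were higher in KI mice and Dsp was lower, while Prox1, Calb1, Trpc6 and Tdo2 did not pass. The 3 of 7 stand beside 15.8% of all genes called, and the median of the 7 was -0.09 against 0.0037 over all genes. C1ql3 was at 2388, 2143, 2225 and 2353 in WT and at 3455, 3173, 2976 and 3432 in KI libraries. The lowest KI library exceeded the highest WT library, the KI mean was 43.1% higher, and the log2 fold change was 0.52 ± 0.06 (limma adjusted p = 0.000316). C1ql2 was at 1226, 1294, 1340.4 and 1319 in WT and at 1755, 2329, 1827 and 1688 in KI libraries. These did not overlap either, with a log2 fold change of 0.54 ± 0.09 (limma adjusted p = 0.00251). Both genes were also higher in KI cortex at this age, and WT hippocampus held 0.825 times the cortical mean of C1ql3. From which cells these changes came was not tested.

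Dsp at PWK 28 was at 1987, 2119, 2051 and 2187 in WT hippocampus, a narrow range, and at 1839, 1426, 1213 and 967 in KI hippocampus. All KI values were below all WT values, and they lay further apart than the WT values did. The log2 fold change of -0.65 ± 0.15 (limma adjusted p = 0.0139) was close to the one at PWK 14. C1ql3 was called under every alternative fit and with any 1 library left out. C1ql2 and Dsp were called with any 1 library left out, but not with the spread of all 64 libraries (limma adjusted p = 0.324 and 0.373). That spread takes in the cortical libraries, where the SE of KI against WT at PWK 28 was 0.58 for C1ql2 and 0.53 for Dsp. In hippocampus the SE was 0.09 and 0.15. The part of the cortical libraries in the lost calls was not tested.

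The other 4 genes at PWK 28 overlapped between genotypes. Prox1 was at 3882, 4017, 3808 and 4037 in WT and 3883, 4128, 3241 and 2980.2 in KI libraries (log2 fold change -0.16 ± 0.09, limma adjusted p = 0.265). KI replicates 3 and 4 were below the WT range and the other 2 were not. Calb1 gave 3696, 3759.7, 3286 and 3539.6 in WT and 3367, 3372, 2890.2 and 3803 in KI libraries (-0.09 ± 0.08, limma adjusted p = 0.455). Tdo2, with KI values of 101, 58.7, 143 and 76.7, overlapped its WT range of 92.3 to 139 (-0.44 ± 0.25, limma adjusted p = 0.263). Trpc6 was at 455, 529, 471 and 488 in KI libraries, around a WT range of 397 to 514 (0.08 ± 0.09, limma adjusted p = 0.598).

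**Figure D3:**
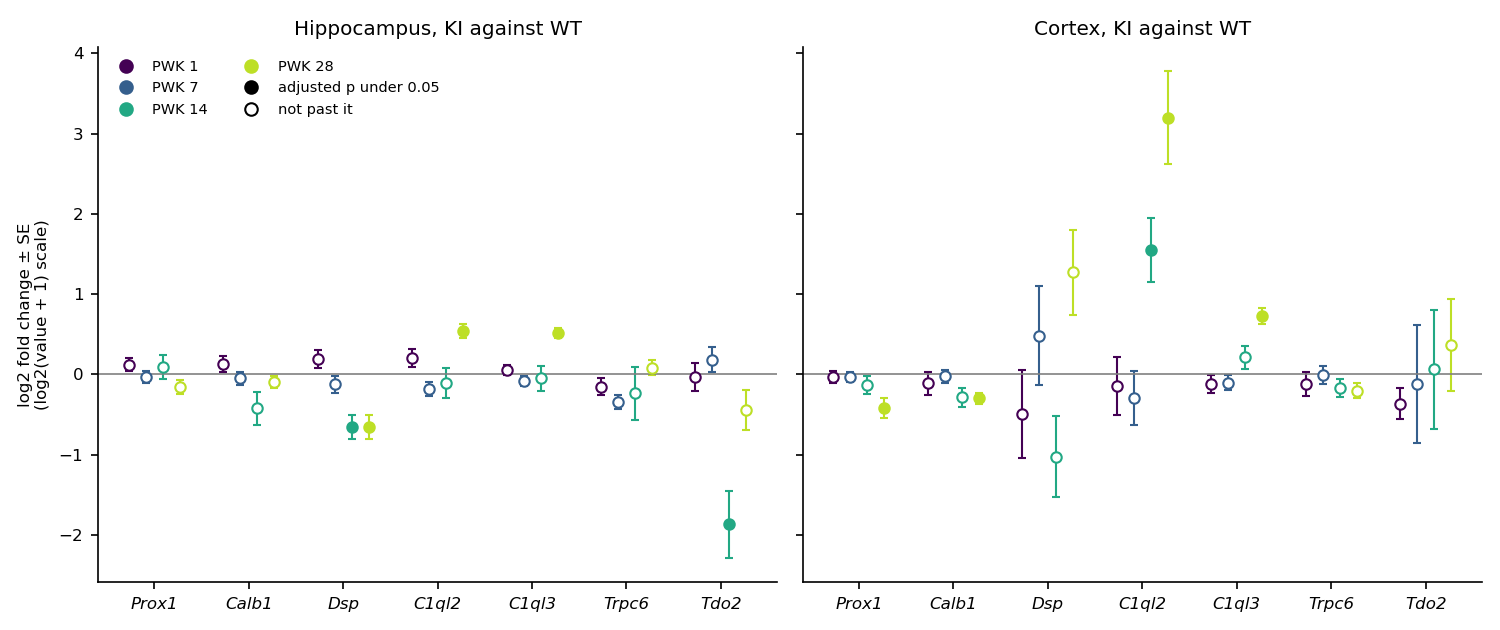
Log2 fold change of KI against WT (y axis, log2(value + 1) scale, fitted value ± SE, 4 libraries a group) for the 7 genes (x axis) in hippocampus (left) and frontal cortex (right) at the 4 ages (colours); filled points passed an adjusted p of 0.05. No filled point lies at PWK 1 or 7, Dsp is below zero at PWK 14 and 28 in hippocampus, and C1ql2 and C1ql3 are above it at PWK 28 in both regions.

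The genes C1ql2 and Dsp, which moved in opposite directions in KI hippocampus, are shown here by their promoter sequences with the motifs found in them. The sequences are the 250 bases before the start site in RefSeq for GRCm38.p6, 5′ to 3′ on the strand of the gene, at chr1:120340332-120340581 for C1ql2 and chr13:38151044-38151293 for Dsp, both plus strand. The table held such a sequence for 6 of the 7 genes, Calb1 not among them. Capitals mark the GC box GGGCGG on either strand.
C1ql2: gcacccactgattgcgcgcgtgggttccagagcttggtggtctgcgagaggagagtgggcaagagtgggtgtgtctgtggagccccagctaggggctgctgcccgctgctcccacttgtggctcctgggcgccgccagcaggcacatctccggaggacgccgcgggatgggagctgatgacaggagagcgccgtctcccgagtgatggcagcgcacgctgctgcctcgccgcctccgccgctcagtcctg
Dsp: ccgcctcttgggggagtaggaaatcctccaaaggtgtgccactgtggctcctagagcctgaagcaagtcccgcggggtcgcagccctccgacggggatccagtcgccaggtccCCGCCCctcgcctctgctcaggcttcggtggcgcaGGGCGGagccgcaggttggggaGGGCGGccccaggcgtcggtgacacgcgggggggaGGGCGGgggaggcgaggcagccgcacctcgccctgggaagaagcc
The Dsp sequence held 4 GC boxes, a motif found in 32.7% of 32851 promoter windows of this length, and that of C1ql2 held none. The cyclic AMP response element TGACGTCA (1.55% of windows), the AP-1 site TGANTCA (6.75%), the E-box CAGNTG (44.8%), TATAAA (12.4%) and CCAAT (33.8%) were searched on both strands and matched in neither. A match describes letters only, and no match says no more than that these letters are not in this window.

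Prox1 is the transcription factor of granule cell identity, though some interneurons also make it. The log2 ratio of each gene to Prox1 was taken in each hippocampal library, a measure added after seeing the data. It asks whether a gene moved relative to Prox1 in the same sample. At PWK 14 the ratio of Dsp to Prox1 was lower in KI mice by 0.75 on the log2 scale, from -0.98 ± 0.05 (SD) in 4 WT libraries to -1.73 ± 0.37 in 4 KI libraries, and that of Tdo2 went from -4.60 ± 0.48 to -6.56 ± 0.64. At PWK 28 the ratio of C1ql2 went from -1.60 ± 0.07 to -0.90 ± 0.16, that of C1ql3 from -0.79 ± 0.09 to -0.12 ± 0.24 and that of Dsp from -0.92 ± 0.04 to -1.41 ± 0.24. In these 5 cases KI and WT libraries did not overlap, and the exact two-sided permutation test of 4 against 4 libraries gave p = 0.0286, the smallest it allows. Over the 12 ratios tested the Benjamini-Hochberg adjusted value of the same exact tests was 0.0686, so none passed 0.05 after adjustment. The 5 cases are also the ones called above for the gene alone in the same libraries, where Prox1 did not pass. The ratios therefore give no separate support. The ratio of Calb1 differed by -0.51 at PWK 14 (exact permutation p = 0.0571) and by 0.06 at PWK 28 (exact p = 0.886), and its groups overlapped at both ages.

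**Figure D4:**
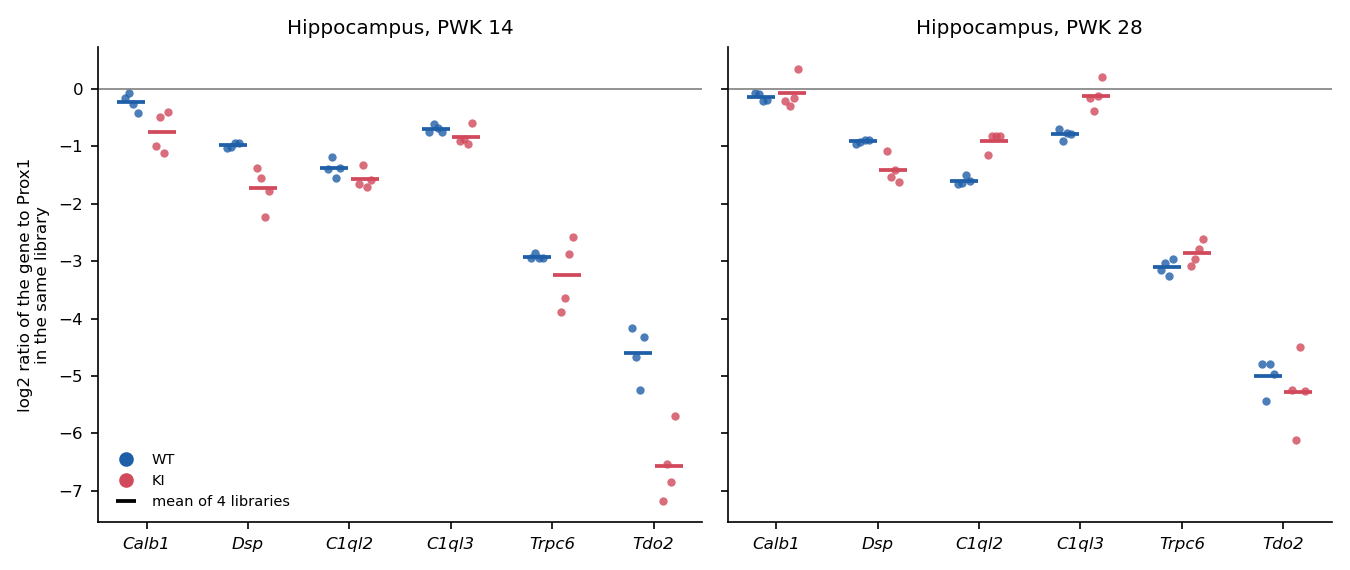
Log2 ratio of 6 genes to Prox1 in the same hippocampal library (y axis) at PWK 14 (left) and PWK 28 (right); points are the 4 WT (blue) and 4 KI (red) libraries and dashes their means. WT libraries lie close together for Dsp (SD 0.05 and 0.04), KI libraries lie lower for Dsp at both ages and for Tdo2 at PWK 14, and higher for C1ql2 and C1ql3 at PWK 28.

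In frontal cortex other cells are known to express some of these genes, among them layer neurons for Calb1 and C1ql3 and interneurons for Prox1. The cells behind the cortical values were not tested. At PWK 14 C1ql2 was higher in KI mice, the only 1 of 7 genes called, beside 5.18% of all genes. Its values were 9.1, 11.8, 17.6 and 15.7 in WT and 28.3, 51.5, 21.6 and 82.6 in KI libraries, which did not overlap. The log2 fold change of 1.55 ± 0.40 had a limma adjusted p of 0.0486, and the call was lost in 6 of the 8 fits that left out 1 library, namely KI replicates 2 (0.128) and 4 (0.0814) and WT replicates 1 (0.139), 2 (0.114), 3 (0.0769) and 4 (0.0875). It was also lost with a pseudocount of 10 (0.0553) and without the filter on low values (0.0643). Calb1 at that age was at 3624, 3923, 3166 and 3102 in WT and 2537, 2379.9, 3351 and 3108 in KI cortex, with overlap (-0.29 ± 0.11, limma adjusted p = 0.178).

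At PWK 28 4 of the 7 genes passed in cortex, beside 22.2% of all genes. C1ql2 was at 37.6, 11.5, 16.3 and 9.17 in WT and at 311, 47.1, 263 and 149 in KI cortex. The KI libraries were above every WT library, KI replicate 2 by the least, and the log2 fold change was 3.20 ± 0.58 (limma adjusted p = 0.0038). C1ql3 was at 2473, 2472, 3125 and 2966 in WT and at 4589.6, 3948, 5240.5 and 4482 in KI cortex, without overlap (0.73 ± 0.10, limma adjusted p = 0.000998). Calb1 went the other way, from 3232, 2934, 3081 and 2844 to 2367, 2687, 2209 and 2577 (-0.30 ± 0.07, limma adjusted p = 0.0154), as did Prox1, from 679, 542, 498 and 492 to 360.4, 471, 406 and 408 (-0.42 ± 0.12, limma adjusted p = 0.0325). Both were lower in every KI library than in any WT library. C1ql2 and C1ql3 were called under each alternative fit and with any 1 library left out. Calb1 was lost with the spread of all 64 libraries (0.0972). Prox1 was lost without KI replicate 1 (0.0765), 3 (0.0707) or 4 (0.0616) or WT replicate 1 (0.0813) or 2 (0.0698).

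The size of the C1ql2 difference in cortex stands beside the other hippocampal genes of the same libraries. Dsp, which is 170-fold higher in WT hippocampus than in WT cortex, was at 37.3, 12.5, 75.2 and 18.5 in the 4 KI cortices against 6.31 to 21.1 in WT (log2 fold change 1.27 ± 0.53, limma adjusted p = 0.113). Replicates 1 and 3, the highest for C1ql2, were also the highest for Dsp. They were the highest too for the summed activity and seizure-responsive genes, at 90987 and 66696 against 22879.6 and 23402 in KI replicates 2 and 4 and 41562 to 46375 in WT cortex. The difference for Dsp was 0.82 without KI replicate 3, and it passed without KI replicate 2 (limma adjusted p = 0.0341), with sample quality weights (0.0433) and with the spread of all 64 libraries (0.0317). Prox1 was lower and not higher in the KI cortices, and Tdo2 was at 24, 12.3, 2.51 and 16 against 5.53 to 14.5 in WT. The summed level of 6 interneuron markers in the same cortices was higher in KI (28576 to 42927) than in WT libraries (20716 to 26718), while Prox1 was lower. The part of hippocampal tissue, activity genes or interneurons in these cortical values was not tested. At PWK 14, cortical Dsp was at 3.61, 1.1, 7.12 and 4.03 in the KI libraries and 3.88 to 14.2 in WT.

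Whether the effect of the allele differed between regions was tested as an interaction over the 16 libraries of an age. At PWK 28 the term for C1ql2 was -2.65 ± 0.64 (limma adjusted p = 0.0239), that is, the log2 fold change was smaller in hippocampus, where the gene is abundant, than in cortex, where its WT values are low. The same term for C1ql3 was -0.21 ± 0.12 (limma adjusted p = 0.39), and that for Dsp was -1.93 ± 0.58 (0.0677). The Dsp term passed without cortical KI replicate 2 (0.00909) or cortical WT replicate 2 (0.0395) and with sample quality weights (0.0137). Both regions came from the same mice, which the fit of 16 separate libraries does not use. With the replicate number within genotype as the mouse, the Dsp term passed as well (0.0392), and C1ql2 kept its call (0.0288). In the fit of separate libraries C1ql2 was the only 1 of 7 genes called, beside 4.57% of all genes, and its call was lost without cortical KI replicate 3 (0.0504) or cortical WT replicate 4 (0.0517). At PWK 14 no gene of the 7 was called (2.85% of all genes), with C1ql2 the nearest (-1.65 ± 0.46, limma adjusted p = 0.064). The C1ql2 term passed there without cortical KI replicate 1 (0.0398) or 3 (0.0309), with the replicate number as the mouse (0.0464) and with the spread of all 64 libraries (0.0261). At PWK 1 and 7, 0 of 7 were called, beside 0.0% (668 genes with an unadjusted p under 0.05) and 0.00543% of all genes.

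A change of the effect between PWK 14 and PWK 28 was not shown for any of the 7 genes in either region. Of all genes 0.0% were called in hippocampus and 0.0% in cortex by limma, where 2274 and 2770 genes had an unadjusted p under 0.05. The terms nearest to the threshold in hippocampus were C1ql3 (0.57 ± 0.17, limma adjusted p = 0.204), C1ql2 (0.65 ± 0.22, 0.261) and Tdo2 (1.43 ± 0.53, 0.279). That C1ql2 and C1ql3 passed at PWK 28 and not at PWK 14, and Tdo2 at PWK 14 and not at PWK 28, is therefore not shown to be a difference between the ages. For Dsp the term was 0.0040 ± 0.23. In cortex the nearest were Dsp (2.30 ± 0.77, limma adjusted p = 0.183) and C1ql2 (1.65 ± 0.76, 0.322), which both passed with the spread of all 64 libraries (0.0315 and 0.0448), and Dsp also with sample quality weights (0.0467).

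Other genes of the same cells and pathways were counted in hippocampus from lists written by function or cell type. At PWK 1 and 7 no gene of the 21 lists passed the limma threshold. Every count of list genes at PWK 14 and PWK 28 has to be read against the 15.6% and 15.8% of all genes called in either direction at these ages, and no list was tested as a set. Of 12 other genes enriched in granule cells, 4 were lower in KI mice at PWK 14 and 2 at PWK 28, with a median log2 fold change of -0.35 and -0.03. The count at PWK 28 is near the share of all genes. Il16, an interleukin precursor, was lower at both ages (-0.78 ± 0.17 and -0.70 ± 0.12, limma adjusted p = 0.0175 and 0.00259). Lct (-1.17 ± 0.27, limma adjusted p = 0.018), Plk5 (-0.83 ± 0.21, 0.0273) and Stxbp6 (-0.53 ± 0.14, 0.0344) were lower at PWK 14, and the transcription factor gene Rfx3 at PWK 28 (-0.17 ± 0.05, 0.0292).

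Against the same 15.6% and 15.8% of all genes, the pathway partners of the 7 genes gave small counts. Among 5 family members and partners of the C1q-like proteins, Nrxn3, the neurexin they bind, was higher at PWK 14 (0.34 ± 0.08, limma adjusted p = 0.0172), Adgrb3, a receptor for them, was lower (-0.33 ± 0.08, 0.0249), and none passed at PWK 28. Of the other 6 TRPC channel genes only Trpc5 passed, lower at PWK 14 (-1.05 ± 0.17, limma adjusted p = 0.00406) and at PWK 28 (-0.79 ± 0.10, 0.000615). None of 7 measured kynurenine pathway enzymes passed at either age. Of 9 measured desmosome partners 3 were higher at PWK 14, namely Pkp1 (2.78 ± 0.71, limma adjusted p = 0.0292), Ppl (1.08 ± 0.14, 0.00179) and Jup (0.62 ± 0.18, 0.0442). At PWK 28 Ppl was higher (1.10 ± 0.14, limma adjusted p = 0.000585) and Pkp2 lower (-0.30 ± 0.08, 0.0296). Thus desmoplakin fell in the same libraries in which periplakin, a plakin of the same family encoded by Ppl, rose.

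Of 11 genes that granule cells induce with activity or seizures, 5 were higher at PWK 14 and 4 at PWK 28, and none was lower, beside 15.6% and 15.8% of all genes in either direction. They were the neuropeptide genes Npy (3.14 ± 0.34 and 2.28 ± 0.09, limma adjusted p = 0.0011 and 1.97e-07) and Penk (3.05 ± 0.26 and 2.05 ± 0.14, 0.000405 and 1.34e-05), Nptx2, which clusters AMPA receptors (3.18 ± 0.30 and 1.79 ± 0.30, 0.000623 and 0.0029), the neurotrophin gene Bdnf (1.73 ± 0.28 and 1.09 ± 0.17, 0.00428 and 0.0017) and, at PWK 14 only among these 2 ages, Inhba (3.20 ± 0.22, 0.000129). Of 8 markers of immature granule cells and neurogenesis 3 were higher at each age. Tac2 (1.51 ± 0.20 and 1.33 ± 0.17, limma adjusted p = 0.0021 and 0.000549) and Igfbpl1 (1.37 ± 0.34 and 1.13 ± 0.34, 0.0267 and 0.0443) passed at both ages, Sox11 at PWK 14 (1.11 ± 0.18, 0.00406) and Calb2, which mossy cells and interneurons also express, at PWK 28 (0.57 ± 0.16, 0.0299).

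Markers of the cells around the granule cells were counted against the same shares, 15.6% of all genes at PWK 14 and 15.8% at PWK 28. Of 6 mossy cell markers none passed at PWK 14, and Calb2 was higher and Csf2rb2 lower at PWK 28. Of 5 CA1 markers 3 were lower at PWK 14, and 1 was higher and 1 lower at PWK 28. For Fibcd1 the log2 fold change was -1.66 ± 0.18 and -1.0 ± 0.17 (limma adjusted p = 0.0011 and 0.00243). Of 4 CA2 markers 1 was lower at PWK 14 and none passed at PWK 28, and of 4 CA3 markers 1, Cpne4, was lower at both ages. Of 6 interneuron markers 1 and 2 were higher, and of 5 genes of all neurons 1, Syt1, was lower at both ages.

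Among glia, 2 of 5 astrocyte markers were higher at each age, and all glial counts stand beside 15.6% and 15.8% of all genes called. The summed level of the 5 went from 36478 to 40121 in WT libraries to 69854 to 185972 in KI libraries at PWK 14, and from 38416 to 40199.5 up to 67286 to 79256 at PWK 28. The upper end at PWK 14 was KI replicate 1, and the other 3 KI libraries were at 69854 to 79716. Gfap alone, at the values given above, was the larger part of each of these KI sums at PWK 14. Of 5 microglial markers none passed at PWK 14 and 3 were higher at PWK 28, when the sum ranged from 6567 to 7680 in WT and from 8458 to 8890 in KI libraries. Of 5 oligodendrocyte markers none and 1 were higher, with sums of 120411 to 149721 (WT) and 85306 to 149999 (KI) at PWK 14, where KI replicate 1 was the lowest and the other 3 were at 127601 to 149999. None of 4 precursor and 4 endothelial markers passed at either age. The part of these shares of RNA in the levels of the 7 genes was not tested.

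Tissue from next to the hippocampus can enter a dissection. Counts of its markers stand beside the same 15.6% and 15.8% of all genes called at PWK 14 and PWK 28. Of 5 thalamic markers 2, Lhx9 and Prkcd, were lower in KI mice at both ages, with sums of 2830 to 3369 (WT) and 1712 to 2458 (KI) at PWK 14. Of 6 meningeal markers 2 were higher and 2 lower at PWK 14, and 1 each way at PWK 28. None of 5 choroid plexus markers passed, although their sum ranged from 1964 to 103027 in WT and from 1820 to 97139 in KI libraries at PWK 14. None of these ranges was set against the 7 genes in a test.

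**Figure D5:**
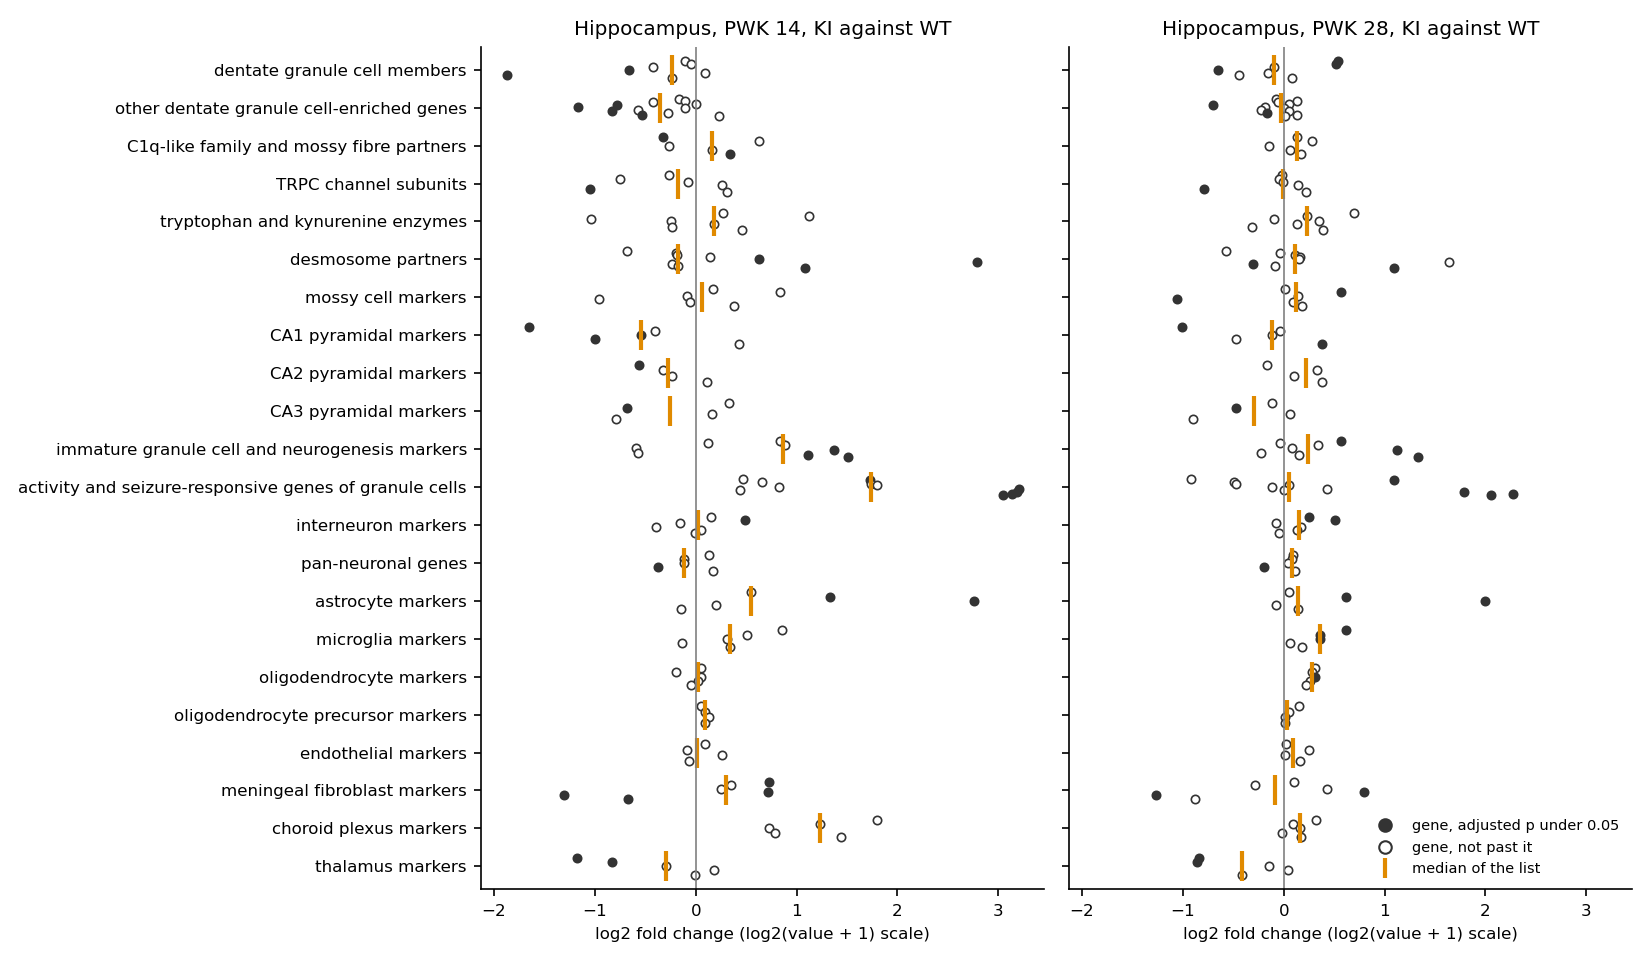
Log2 fold change of KI against WT (x axis, log2(value + 1) scale) for the 7 granule cell genes and 21 further lists (rows) in hippocampus at PWK 14 (left) and PWK 28 (right); each point is a gene, filled where it passed an adjusted p of 0.05, and the bar is the median of the list. The 7 genes spread to both sides of zero at PWK 28, while the activity genes that passed all lie above 1.

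Last, the genes whose values ran most alike with each of the 7 were found over the 24 hippocampal libraries of PWK 7, 14 and 28, among 12809 genes with a mean of at least 100, by Pearson correlation of log2 values. The 24 libraries share the differences of genotype and age, so these values describe likeness in this set and have no test. For Dsp they were Prdm8 (r = 0.910), Ccbe1 (0.909) and Gdf10 (0.908). For Tdo2 they were Tnrc6c (0.923), Fam131a (0.912) and Fam160a1 (0.910). Prox1 ran with Foxn2 (0.865), Homer3 (0.83) and Ppp1r12a (0.813), and Calb1 with Lrrn1 (0.868), Kctd4 (0.861) and Rims1 (0.860). For C1ql2 the nearest were Suds3 (0.839), Wbp2 (0.830) and Grina (0.785), for C1ql3 Synpr (0.767), Gprc5b (0.759) and Ntsr2 (0.753), and for Trpc6 Snap25 (0.739), Gpc5 (0.734) and Rai2 (0.732). No member of the 7 was among the nearest 3 genes of another.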

How the data were processed

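RNA from frontal cortex and hippocampus was sequenced with a TruSeq Stranded kit (mRNA LT per the labels, Total RNA LT per the study's methods). Per the labels, reads were quantified with Salmon 0.11.2 on GRCm38 and scaled with DESeq2 1.19.11 in R 3.6.0. The authors deposited 1 table of DESeq2-normalized signal for 18432 genes in 64 libraries. The values are not whole numbers (2.04% of values above 0 lie within 0.01 of one), so no count model was used. Identifiers were matched to GENCODE vM21 (18420 of 18432). The lowest mean of a gene over all libraries was 4.26.

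Groups came from the labels, with 4 separate mice a group. Each comparison was fitted to its own libraries with limma 3.58.1 (R 4.3.3, trended empirical Bayes) on log2(value + 1), for genes with a mean of at least 1, and adjusted by Benjamini-Hochberg over all genes tested, with calls at 0.05. The script was tested on simulated data with known changes. The 7 genes, the 21 further lists and the rule for named genes (the 7 genes, called list genes up to 4 a list, and the 3 most alike genes) were chosen with earlier results of these data known. Alternatives were a pseudocount of 10, no filter or a minimum mean of 10, scaling by library totals, a fit of all 64 libraries, sample quality weights, a replicate block, a GC and length correction, and each library left out in turn. Permutation tests used scipy 1.17.1. The labels do not say whether equal replicate numbers in both regions are 1 mouse. All 4 correlations of equal numbers exceeded 0.1 in 2 of 8 sets of hippocampus with cortex (WT at PWK 1 and KI at PWK 28), so the fits had no block, and blocked values are given where they change a call.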

Additional observations from a re-analysis of the deposited data

Results flagged for a closer look

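In 3 of the 112 sets of 4 libraries tested for a sample far from the others, 1 library stood out, and chance flags about 1 set in 20. All were low values in frontal cortex. Dsp was at 50.1 in KI replicate 1 at PWK 7, against 6.19 to 6.98 in the other 3 libraries. C1ql2 was at 17.1 in KI replicate 2 at PWK 1 (others 7.10 to 8.42) and at 37.8 in WT replicate 2 at PWK 7 (others 13.4 to 17.0). These groups entered no called difference between genotypes, and the PWK 7 library of C1ql2 lies on the WT side of the age and region comparisons.

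The effect of the allele on C1ql2 differed between regions at PWK 28, by -2.65 on the log2 scale (hippocampus minus cortex). WT values of the gene were low in cortex, at a mean of 18.6. The call was lost without cortical KI replicate 3 or cortical WT replicate 4 (limma adjusted p = 0.0504 and 0.0517). The change of WT mice from PWK 1 to PWK 7 differed between the regions for 6 of the 7 genes, again as hippocampus minus cortex. The difference was 5.47 for Dsp, 4.09 for Tdo2, 2.16 for C1ql2 and 0.51 for C1ql3, and -0.73 for Calb1 and -0.42 for Prox1.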

How the results depend on the processing

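No called difference of the 7 genes changed direction under the alternatives run. Of 2322 refitted values that passed neither before nor after, 119 changed sign. The spread of all 64 libraries left 1 call in place of 3 in hippocampus at PWK 28, gave 1 for genotype by region at PWK 14 (2 over the 4 ages, against 1) and 2 for genotype by PWK 28 against 14 in cortex (2 in all, against 0). In cortex at PWK 14 the 1 call became 0 with a pseudocount of 10 and 0 without a filter. Sample quality weights gave 1 call in place of 0 in hippocampus from PWK 7 to 14 and 1 from PWK 14 to 28, 2 for genotype by region at PWK 28 (2 over the 4 ages) and 1 for genotype by PWK 28 against 14 in cortex (1 in all). The GC and length correction gave 1 call from PWK 14 to 28 in cortex. The cause was not tested.

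Leaving out 1 library gave 1 to 2 calls in hippocampus and 0 to 1 in cortex for KI against WT at PWK 14. It gave 0 to 1 in WT hippocampus from PWK 7 to 14, 0 to 3 from PWK 14 to 28, and 0 to 1 and 0 to 2 for genotype by region at PWK 14 and 28.

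Deviations of samples with equal replicate numbers correlated above 0.1 in 10 of 32 pairs of KI with WT, 17 of 32 of hippocampus with cortex and 6 of 24 of successive ages. A library matched best with its own number in 22 of 64, 38 of 64 and 13 of 48 cases. Between regions, where the mice were shared, the numbers matched in some groups (8 of 8 for KI at PWK 28) and not in others (0 of 8 for WT at PWK 28). With a replicate block the calls were 0 in cortex at PWK 14, 1 and 2 for genotype by region at PWK 14 and 28, and 3 over its 4 ages. In cortex at PWK 28 Prox1 was lost (limma adjusted p = 0.0603). For KI against WT the block joins different mice that share only a number, so it is no check of a shared mouse. For genotype by region it takes equal numbers within a genotype as the mouse.

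The values carry no depth, so precision rests on 4 mice a group. Low genes such as Tdo2, and Dsp and C1ql2 in cortex, had the widest errors.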
